A study of Homo sapiens with 6 samples.

Results

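The genes described here serve the early secretory pathway and its stress response. They comprise the protein-conducting channel of the endoplasmic reticulum (ER), the COPII coat, the KDEL receptors, the ER chaperones, and the sensors and transcription factors of the unfolded protein response (UPR). Members were taken by gene symbol from a list of 48. All 48 were found among the 58395 gene identifiers of the count table, each with 1 identifier, and all 48 passed the filter on low counts. RNA was sequenced from H1, an established human embryonic stem cell (hESC) line whose source the labels give as blastocyst. The 6 libraries comprise 2 of wild-type genotype (WT) and 4 of BRPF1 knockout genotype, the latter in 2 sets of 2 called KO 1# and KO 2#. BRPF1 is a scaffold of histone acetyltransferase complexes. The labels give no treatment or time point, do not say what 1# and 2# stand for or how BRPF1 was edited, and do not say whether replicates were separate cultures, so p-values may measure technical spread only.

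Proteins destined for secretion or for membranes enter the ER through the SEC61 channel, fold there with the help of chaperones such as HSPA5 (BiP), and leave in vesicles coated by COPII. KDEL receptors return escaped chaperones from the Golgi, and ER-associated degradation (ERAD) removes what fails to fold. When unfolded protein builds up, 3 ER membrane sensors, IRE1 (ERN1), PERK (EIF2AK3) and ATF6, start the UPR. IRE1 splices XBP1 mRNA, PERK phosphorylates eIF2 alpha and thereby favours translation of ATF4, and ATF6 is cut to release a transcription factor. Much of the UPR is therefore regulated beyond mRNA level, which gene counts do not measure.

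XBP1 illustrates that limit. In GENCODE 29, transcripts XBP1-201 and XBP1-202 (chromosome 22) differ in that the second lacks 26 bases, a number that is not a multiple of 3, so the reading frame shifts where they are removed. In the stretch of XBP1-201 shown next, capitals mark the 26 bases in 1 of 7 placements that give the same joined sequence.
XBP1-201: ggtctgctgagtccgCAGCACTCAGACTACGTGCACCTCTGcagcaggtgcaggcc
Counts per gene add the spliced and unspliced forms together.

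Promoters were searched because several UPR factors bind known short elements. The motifs were the ER stress element ERSE (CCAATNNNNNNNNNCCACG), ERSE-II (ATTGGNCCACG), the UPR element core (TGACGTG) and the C/EBP-ATF response element CARE (TGATGNAA), on both strands. Windows ran from 250 bases before to 50 after each RefSeq start site on GRCh38.p14, and 45 of the 48 members matched a RefSeq entry, all but SEC24D, KDELR2 and PDIA3. The 250 bases before the start site are shown for 4 members, chosen because they span the range of responses described later. Capitals mark ERSE in HSPA5, ERSE-II in HERPUD1 and HYOU1 (in HYOU1 at 2 sites, on the opposite strand), and the UPR element core of KDELR3, also on the opposite strand.
HSPA5 (chr9:125241344-125241593, minus strand): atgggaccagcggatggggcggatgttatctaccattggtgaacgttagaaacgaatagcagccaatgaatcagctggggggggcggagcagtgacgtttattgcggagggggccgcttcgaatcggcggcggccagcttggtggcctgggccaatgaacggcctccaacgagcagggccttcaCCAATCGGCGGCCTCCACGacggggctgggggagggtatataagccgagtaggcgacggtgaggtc
HERPUD1 (chr16:56931892-56932141, plus strand): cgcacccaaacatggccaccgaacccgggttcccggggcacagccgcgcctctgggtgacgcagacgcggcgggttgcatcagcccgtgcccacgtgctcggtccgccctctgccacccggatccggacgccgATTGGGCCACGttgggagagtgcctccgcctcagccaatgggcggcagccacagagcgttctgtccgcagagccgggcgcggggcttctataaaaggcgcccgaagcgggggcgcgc
HYOU1 (chr11:119057206-119057455, minus strand): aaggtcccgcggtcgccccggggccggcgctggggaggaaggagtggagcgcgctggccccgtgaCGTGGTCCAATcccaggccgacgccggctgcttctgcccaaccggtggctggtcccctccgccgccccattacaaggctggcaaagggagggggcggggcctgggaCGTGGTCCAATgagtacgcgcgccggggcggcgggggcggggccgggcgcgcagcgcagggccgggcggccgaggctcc
KDELR3 (chr22:38467846-38468095, plus strand): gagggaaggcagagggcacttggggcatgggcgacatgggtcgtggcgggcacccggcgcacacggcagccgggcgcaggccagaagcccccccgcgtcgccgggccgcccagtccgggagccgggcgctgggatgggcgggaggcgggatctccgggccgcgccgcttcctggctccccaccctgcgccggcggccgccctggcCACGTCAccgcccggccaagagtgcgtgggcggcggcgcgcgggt
HYOU1 also holds a UPR element core that overlaps its first ERSE-II match. An ERSE or ERSE-II match was found in 9 of the 45 members (20%) and in 44 of the 27305 genes of the promoter table (0.161%). The 9 were CALR, CANX, HERPUD1, HSP90B1, HSPA5, HYOU1, PDIA6, SDF2L1 and XBP1. The UPR element core matched 11 members (24.4%) and 2.40% of all genes, whereas CARE matched 2 members, CREB3L2 and HERPUD1 (4.44%), and 4.46% of all genes. A match describes letters in the window and was not tested as a binding site. Since the list was drawn up to hold UPR genes, these shares describe the list and test nothing.

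Libraries held 33421785 to 38098779 counts, of which members took 0.732% and 0.741% in WT and 1.02% to 1.10% in the knockout libraries. Levels are TMM-normalised CPM, that is, counts relative to an effective library size. BRPF1 itself stood at 28.4 and 23.1 CPM in the WT libraries, at 32.2 and 27.9 in KO 1# and at 25.4 and 23.6 in KO 2#, and the groups overlapped (log2 fold change 0.08 ± 0.103 SE, adjusted p = 0.508, edgeR quasi-likelihood test). In the same test, the estimate was -0.66 (adjusted p = 7.1e-06) when libraries were scaled by their totals alone. It was -0.32 (adjusted p = 0.0078) under totals without the 20 most abundant genes. Whether BRPF1 counted as lower thus depended on scaling, and under TMM the gene count does not show the edit. The 14 markers of pluripotent cells were all lower in the knockout libraries, their summed level falling from 9282 to 9419 CPM in WT to 116 to 176 CPM. POU5F1 measured 1580.4 and 1745 CPM in WT and at most 0.667 in the knockout libraries, and NANOG was at 0 in 3 of the 4. The 16 fibroblast and feeder cell markers were all higher, with log2 fold changes from 0.16 to 16.95 and a median of 8.21. Their summed levels were 885 to 920 CPM in WT and 209783 to 230163 CPM in the knockout libraries. Of 4 tested epithelial markers all 4 were lower, while 2 of 5 endothelial and blood markers rose and 1 fell, and 2 of 3 tested neural markers rose and 1 fell. The 5 marker lists stand beside 35.8% of all genes that rose and 41.4% that fell. The knockout libraries are labelled hESC, and in each of them 1 or 2 of the 14 pluripotency markers were at 0. The part of these markers' cell types in the results on secretory genes was not tested, and in bulk RNA fewer cells of a type and less RNA per cell cannot be told apart.

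Nearly all members were more abundant in the knockout libraries. Against WT, 45 of the 48 rose at a Benjamini-Hochberg adjusted p below 0.05 over 19660 genes (edgeR), 0 fell, and HYOU1, PDIA6 and ATF4 did not pass. Of all genes tested, 35.8% rose and 41.4% fell, 77.3% in all. The median log2 fold change was 1.18 over the members and -0.13 over all genes. Of the members, 29 rose by more than 1 on the log2 scale, a size reached by 23.3% of all genes, and 11 of them by more than 2. In 45 members every knockout library lay above both WT libraries, which held for 37.2% of all genes, and in the other 3 the groups overlapped. The summed level of the 48 genes went from 5255 to 12628 CPM, a ratio of 2.40.

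**Figure D1:**
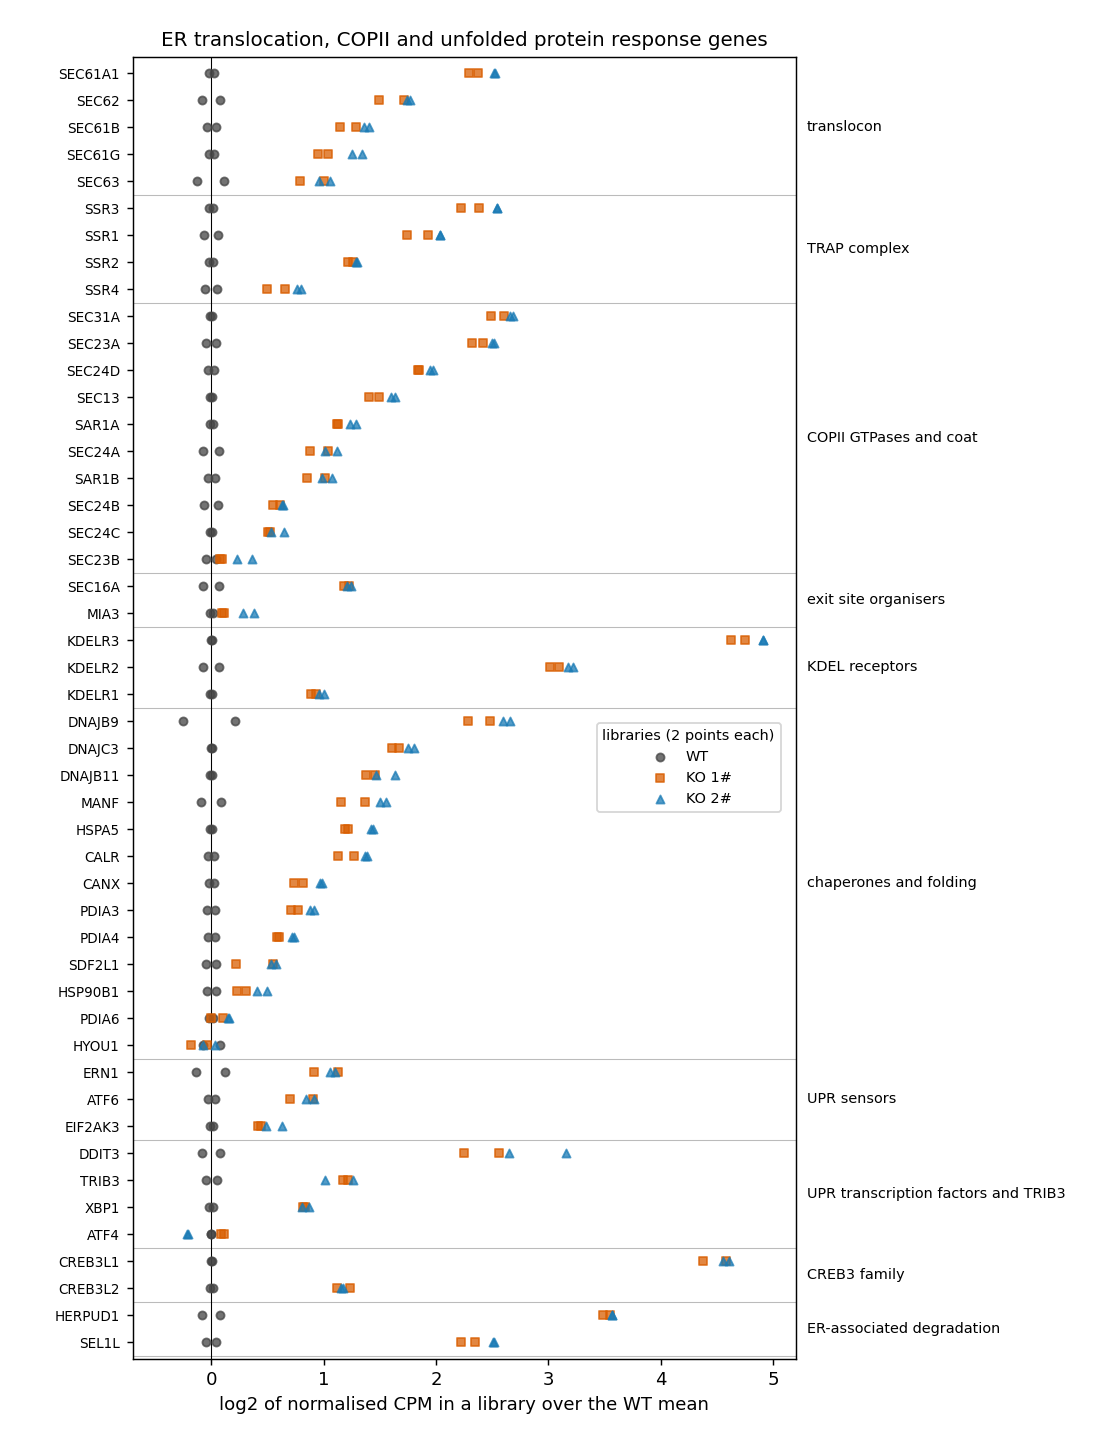
Each row is 1 member, grouped by role, and each point is 1 library, placed at the log2 ratio of its TMM-normalised CPM to the WT mean (2 WT, 2 KO 1# and 2 KO 2# libraries). Knockout points lie to the right of the WT points in 45 rows, and they overlap WT for HYOU1, PDIA6 and ATF4.

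The size of these differences depends on how libraries are scaled to each other. Collagen transcripts took 0.234% to 0.255% of counts in WT and 14.9% to 15.9% in the knockout libraries, so each library total holds a different mix. Scaling by library totals moved the median of all genes by -0.73, and 33 members then rose and 9 fell, beside 21.9% and 59.9% of all genes. Totals without the 20 most abundant genes gave 40 higher and 5 lower members, beside 27.7% and 51.6% of all genes. The members' median exceeded the all-gene median by 1.31 under TMM and under both of these scalings. A change of scaling shifts all genes by nearly the same amount, so this difference could hardly have varied. Changes in the text are those under TMM.

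**Figure D2:**
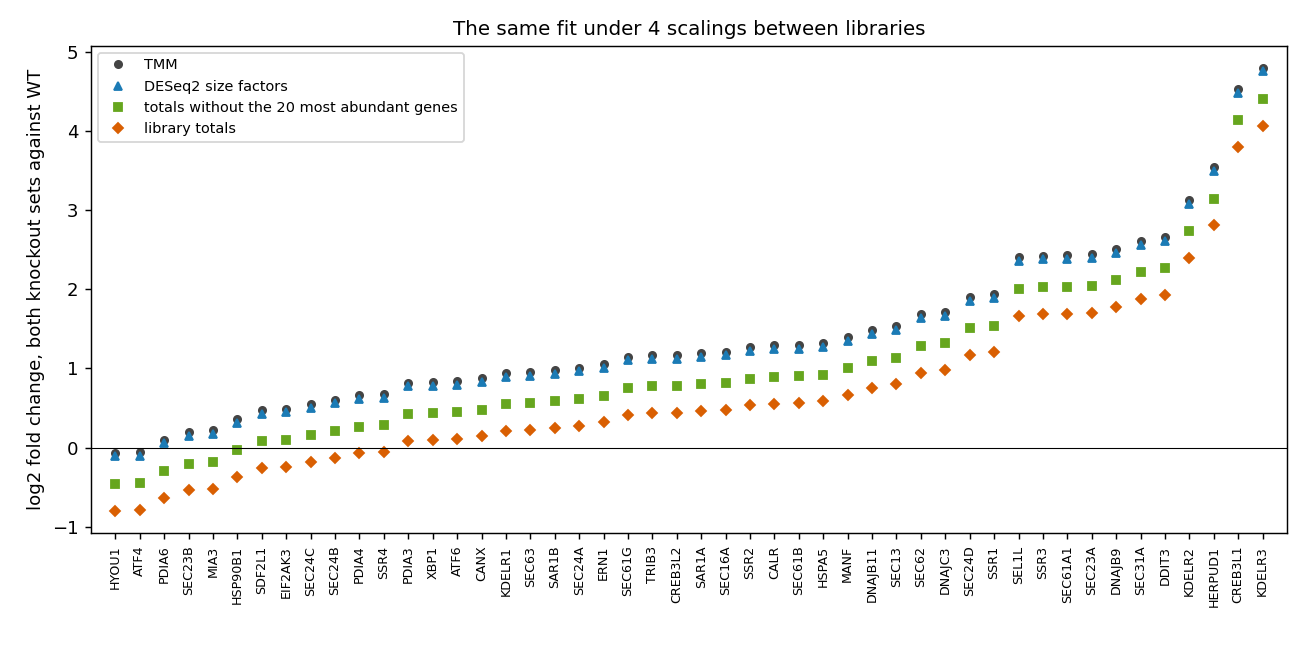
Log2 fold change of each of the 48 members, both knockout sets against WT, ordered by the TMM value and drawn for 4 scalings between libraries. The level shifts by a similar amount for each gene, and members near the left end change sign under library totals.

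All 5 translocon genes rose, beside 35.8% of all genes. SEC61A1, the pore-forming subunit of the channel, stood at 144 and 139.8 CPM in the WT libraries, at 736 and 696 in KO 1# and at 814 and 811 in KO 2#. Every knockout library was at least 4 times above WT, which gave a log2 change of 2.43 ± 0.0567 SE, adjusted p = 4.65e-17. The small subunits SEC61B and SEC61G rose less, by 1.30 and 1.15. Among the partners that serve post-translational import, SEC62 rose by 1.68 and SEC63, which recruits BiP to the channel, by 0.96. The summed level of the 5 genes was 3.70 times that of WT.

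The 4 subunits of the TRAP complex, which sits beside the channel and aids insertion of nascent chains, also rose, and unequally. SSR3 stood at 100.5 and 103 CPM in the WT libraries, at 475 and 529 in KO 1# and at 593 and 593 in KO 2#. WT and knockout libraries did not overlap (log2 fold change 2.42 ± 0.0624 SE, adjusted p = 1.91e-16). SSR1 rose by 1.94, SSR2 by 1.27 and SSR4 by 0.68, the last turning to -0.053 under library totals. SSR4 shares exon bases with IDH3G, and since the strand setting of the counting is not given in the sources used here, reads of such neighbours cannot be told apart. Exons of 27 members overlap another gene, among them SEC61A1, SEC62, SEC63, SSR1, SSR2, SEC23A and SEC31A. Of the 21 members without overlap, 20 rose and 0 fell, beside 35.8% and 41.4% of all genes, with a median of 1.17.

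All 10 genes of the COPII GTPases and coat rose, beside 35.8% of all genes, but paralogues that build the same layer differed. Under library totals 7 of them rose and 2 fell, beside 21.9% and 59.9% of all genes. The small GTPase SAR1 starts coat assembly. SAR1A rose by 1.19 and SAR1B by 0.98. SEC23 and SEC24 form the inner coat, in which SEC24 binds cargo. SEC23A (GRCh38 chromosome 14, 39031919 to 39109646, minus strand) stood at 63.8 and 68.1 CPM in the WT libraries, at 330.1 and 353 in KO 1# and at 376 and 372 in KO 2#. Its paralogue SEC23B stood at 53.3 and 56.7 CPM in the WT libraries, at 58.9 and 58.1 in KO 1# and at 64.4 and 70.8 in KO 2#. SEC23A was thus far above WT in each knockout library (log2 fold change 2.44 ± 0.0633 SE, adjusted p = 2.12e-16), whereas SEC23B lay close to WT (0.19 ± 0.0714 SE, adjusted p = 0.0198). The call for SEC23B was lost with DESeq2 size factors, with the DESeq2 test, without the low-count filter, and without WT replicate 1 (adjusted p = 0.181) or KO 2# replicate 2 (adjusted p = 0.0934), and its sign turned under library totals (-0.54) and under totals without the 20 most abundant genes (-0.20).

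Shares within a family do not depend on library scaling, since both genes are read from the same library. Counts per kilobase of the principal transcript were used. SEC23A made up 50.2% and 50.3% of the SEC23 pair in WT and 81.6% to 83.7% in the 4 knockout libraries. Among the 4 cargo-binding SEC24 genes, SEC24D rose by 1.90, SEC24A by 1.01, SEC24B by 0.61 and SEC24C by 0.55; under library totals SEC24B (-0.13) and SEC24C (-0.18) changed sign. SEC24D accordingly went from 41.3% and 41.6% of the SEC24 family in WT to 60.9% to 62.4%, and the other 3 shares were lower in every knockout library. SAR1A moved little, from 76.2% and 77.3% to 78.1% to 79.9%. These shares are descriptions, since 2 WT against 4 knockout libraries cannot reach an exact permutation p below 0.05.

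**Figure D3:**
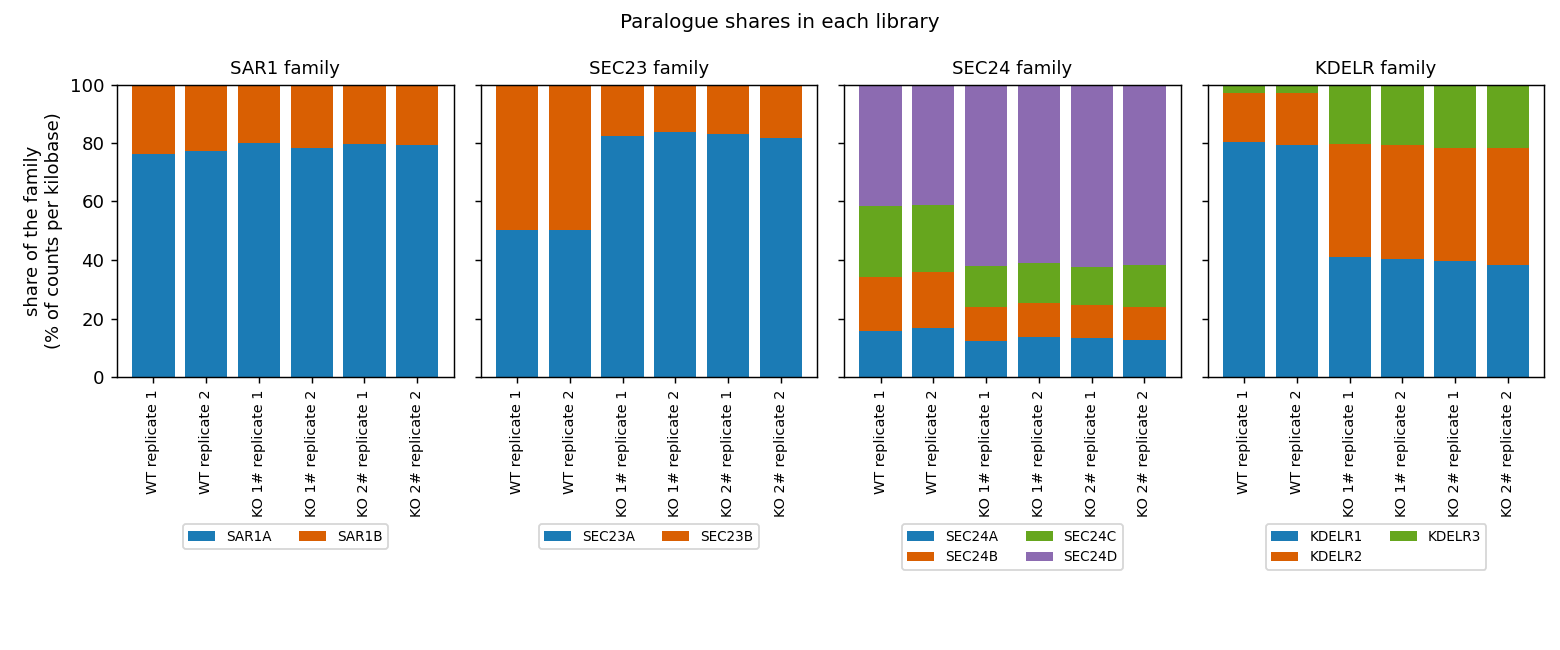
Stacked bars give, for each of the 6 libraries, the share of each paralogue in its family as a percentage of counts per kilobase of the principal transcript. SEC23A, SEC24D, KDELR2 and KDELR3 take a larger share in all 4 knockout libraries than in both WT libraries.

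The outer coat is a cage of SEC13 and SEC31. SEC31A stood at 96 and 97.1 CPM in the WT libraries, at 543 and 588 in KO 1# and at 609 and 619.7 in KO 2#. All knockout libraries exceeded 5 times the WT level (log2 fold change 2.61 ± 0.0601 SE, adjusted p = 4.02e-17). SEC13, which also serves the nuclear pore, rose by 1.53. SEC16A, the scaffold of ER exit sites, rose by 1.21. MIA3 (TANGO1), the exit site receptor through which bulky cargo such as procollagen leaves the ER, stood at 52.6 and 51.7 CPM in the WT libraries, at 55.8 and 56.5 in KO 1# and at 67.7 and 63.2 in KO 2#. Its rise was small (0.22 ± 0.0697 SE, adjusted p = 0.00899), was lost without WT replicate 2 (adjusted p = 0.0696), and turned to -0.52 under library totals and -0.18 under totals without the 20 most abundant genes.

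Among the KDEL receptors, the least abundant in WT changed most. KDELR3 (chromosome 22, 38468062 to 38483447, plus strand) stood at 7.21 and 7.25 CPM in the WT libraries, at 179 and 194 in KO 1# and at 217 and 217 in KO 2#. KDELR2 stood at 67.4 and 74.4 CPM in the WT libraries, at 573 and 605 in KO 1# and at 639 and 660.1 in KO 2#. KDELR1, the main receptor in WT, stood at 176 and 178 CPM in the WT libraries, at 327 and 337 in KO 1# and at 355 and 345 in KO 2#. Every knockout library lay above both WT libraries for all 3, which held for 37.2% of all genes. The receptors' log2 fold changes were 4.80 ± 0.0821 SE, 3.12 ± 0.0652 SE and 0.95 ± 0.0542 SE. Per kilobase, KDELR1 went from 79.8% of the family in WT to 39.8% in the knockout libraries, while KDELR2 went from 17.3% to 39.0% and KDELR3 from 2.94% to 21.2%. KDELR3 thereby moved from rank 42 to rank 17 among the 48 members by level per kilobase. KDELR2 shares exon bases with DAGLB on the same strand, and KDELR3 with DDX17.

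Of the 13 chaperones and folding enzymes 11 rose and 0 fell, beside 35.8% and 41.4% of all genes, with a median of 0.88. Under library totals 7 rose and 4 fell, beside 21.9% and 59.9% of all genes. HSPA5, the master ER chaperone and the usual readout of the UPR, stood at 373 and 369 CPM in the WT libraries, at 862 and 847 in KO 1# and at 1006 and 994 in KO 2#. All knockout libraries were above WT by a factor of at least 2 (log2 fold change 1.32 ± 0.0502 SE, adjusted p = 4.88e-14). HSP90B1 (GRP94), the ER HSP90, stood at 592 and 625 CPM in the WT libraries, at 715 and 753 in KO 1# and at 809.9 and 859.7 in KO 2#, a rise of only 0.36 that became -0.37 under library totals and -0.03 under totals without the 20 most abundant genes. HYOU1 (GRP170), an exchange factor for HSPA5, stood at 241 and 217 CPM in the WT libraries, at 224 and 202 in KO 1# and at 235 and 218 in KO 2#. HYOU1 overlapped between groups (-0.06 ± 0.0633 SE, adjusted p = 0.370), and so did the disulfide isomerase PDIA6 (0.10 ± 0.0551 SE, adjusted p = 0.101), which stood at 228 to 233 CPM in WT and 230.1 to 257 in the knockout libraries. Under library totals both fell, with log2 fold changes of -0.80 for HYOU1 (adjusted p = 3.7e-10) and -0.63 for PDIA6, and under totals without the 20 genes these were -0.46 (adjusted p = 1.5e-06) and -0.29. With a term for replicate number in the edgeR fit (the replicate block), PDIA6 passed as higher (0.10, adjusted p = 0.0237). Without KO 1# replicate 2 its log2 fold change was 0.14.

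The lectin chaperones that hold glycoproteins rose, CALR by 1.29 and CANX by 0.88. CALR was the most abundant member per kilobase in both genotypes, at 241 ± 6.68 CPM per kilobase (SD, n = 2) in WT against 591 ± 47.2 (SD, n = 4) across KO 1# and KO 2#. The disulfide isomerases PDIA3, which works with the lectins, and PDIA4 rose by 0.82 and 0.66. Of the J-domain partners of HSPA5, DNAJB9 stood at 6.06 and 8.35 CPM in the WT libraries, at 35 and 40.2 in KO 1# and at 45.4 and 43.7 in KO 2#, the largest log2 fold change of the 13 (2.51 ± 0.126 SE, adjusted p = 2.84e-12). DNAJC3 rose by 1.71 and DNAJB11 by 1.48. MANF, an ER-resident protein secreted under stress, rose by 1.40 and SDF2L1 by 0.47. Under library totals PDIA4 (-0.07) and SDF2L1 (-0.26) changed sign and PDIA3 did not pass (0.087, adjusted p = 0.135). SDF2L1 did not pass under totals without the 20 genes (0.079, adjusted p = 0.479).

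The 3 sensors rose, beside 35.8% of all genes. Under library totals, however, 1 rose and 1 fell, beside 21.9% and 59.9% of all genes. ERN1 stood at 8.81 and 10.6 CPM in the WT libraries, at 21.2 and 18.2 in KO 1# and at 20.8 and 20.1 in KO 2#, or a log2 change of 1.05 ± 0.121 SE, adjusted p = 3.61e-07. ATF6 rose by 0.84, but under library totals it did not pass (0.11, adjusted p = 0.215). EIF2AK3 rose by 0.49, which became -0.24 under library totals and did not pass under totals without the 20 genes (0.098, adjusted p = 0.366). Among their downstream genes, XBP1 stood at 80.7 and 78.5 CPM in the WT libraries, at 139.8 and 142 in KO 1# and at 139 and 145 in KO 2#, a rise of 0.83 ± 0.0617 SE without overlap; under library totals XBP1 did not pass (0.097, adjusted p = 0.156). TRIB3, a pseudokinase induced by ATF4 and CHOP, rose by 1.17. DDIT3 (CHOP), the stress factor linked to apoptosis, stood at 0.650 and 0.583 CPM in the WT libraries, at 2.93 and 3.64 in KO 1# and at 5.51 and 3.88 in KO 2#. DDIT3 rose by 2.66 ± 0.311 SE, adjusted p = 4.34e-07, and per kilobase it was the lowest of the 48 members in WT and the second lowest in the knockout libraries. Its counts were 34 and 28 in the WT libraries and 92 to 152 in the knockout libraries. Its exons overlap those of MARS and MBD6.

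ATF4, which carries the PERK arm, was the 1 member whose estimates had opposite signs in the 2 knockout sets under TMM. ATF4 stood at 316 and 315 CPM in the WT libraries, at 341 and 335 in KO 1# and at 272 and 273 in KO 2#. KO 1# lay slightly above WT and KO 2# below it. KO 1# did not pass against WT (0.10 ± 0.0586 SE, adjusted p = 0.134), KO 2# fell (-0.21 ± 0.0589 SE, adjusted p = 0.00371), and the mean of both sets did not pass (-0.06 ± 0.0507 SE, adjusted p = 0.324). With a replicate block in the edgeR fit, KO 1# passed as higher than WT (0.10, adjusted p = 0.0374). The fall in KO 2# lost its call without KO 2# replicate 1 (adjusted p = 0.0576) or replicate 2 (adjusted p = 0.0545). Under library totals KO 1# also fell (log2 fold change -0.61), and the mean of both sets was -0.79 (adjusted p = 2.3e-11). Totals without the 20 most abundant genes gave -0.28 for KO 1# and -0.45 for both sets (adjusted p = 1.4e-07). The DESeq2 test also called the mean of both sets lower (-0.10, adjusted p = 0.0227).

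The 2 ER-anchored factors of the CREB3 family, which are released by cleavage like ATF6, both rose, beside 35.8% of all genes. CREB3L1 (OASIS; chromosome 11, 46277661 to 46321422, plus strand), known for driving secretory and collagen genes in bone, stood at 17.9 and 18.1 CPM in the WT libraries, at 429.7 and 374 in KO 1# and at 439 and 423 in KO 2#. Every knockout library was more than 20 times above WT (4.53 ± 0.0790 SE, adjusted p = 9.07e-19). CREB3L1 ranked 36 of 48 by level per kilobase in WT and 10 in the knockout libraries. CREB3L2 (BBF2H7), known from cartilage, rose by 1.17. Within each library the log2 ratio of CREB3L1 to CREB3L2 went from -2.03 and -2.04 in WT to between 1.10 and 1.42.

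Both ERAD members rose, beside 35.8% of all genes. HERPUD1 (chromosome 16, 56932048 to 56944863, plus strand), a UPR-induced scaffold of the HRD1 ubiquitin ligase, stood at 10.8 and 12.1 CPM in the WT libraries, at 128 and 134 in KO 1# and at 136 and 136 in KO 2#. Knockout libraries exceeded WT more than 10 times (3.54 ± 0.0813 SE, adjusted p = 3.97e-17). SEL1L, the adaptor of the same ligase, stood at 38.3 and 40.7 CPM in the WT libraries, at 185 and 201 in KO 1# and at 224 and 226 in KO 2#, a rise of 2.40 ± 0.0689 SE.

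Members were also read by their promoter matches. For ERSE or ERSE-II the median log2 fold change was 0.83 over 9 genes, ranging from HYOU1 at -0.06 to HERPUD1 at 3.54, beside 1.20 over the 36 matched members without. The 11 members with a UPR element core had a median of 1.53, beside 1.16 over the 34 without. The core matched KDELR3, SEC61A1, SEC23A and SSR3, which rose by over 2, and also MIA3 and HYOU1, which did not. No test was run on these groups, and 3 members had no promoter entry.

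**Figure D4:**
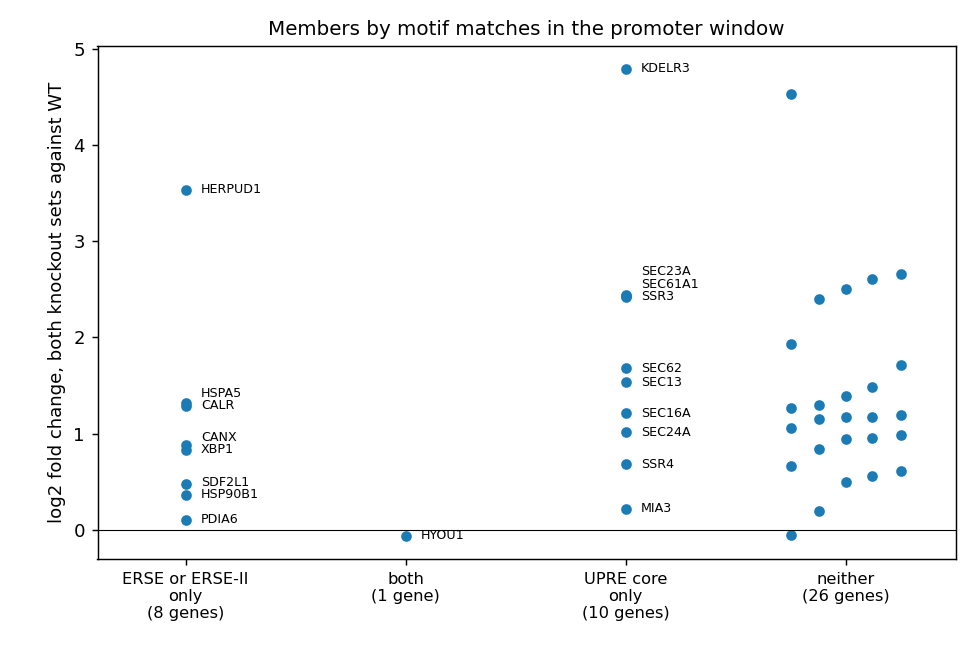
Log2 fold change of 45 members, both knockout sets against WT, by motif match in the promoter window of 300 bases. Points are genes, spread sideways for legibility in the last class only; the 8 genes with ERSE or ERSE-II alone, the 10 with the UPR element core alone and the 26 with neither overlap widely, and HYOU1 is the 1 gene with both.

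Each knockout set was also compared with WT on its own. In KO 1# 43 members rose and 0 fell (35% and 38.7% of all genes, 73.6% in all), with a median of 1.19. In KO 2# 46 rose and 1, ATF4, fell (34.6% and 39.1% of all genes, 73.7% in all), with a median of 1.24. The comparisons share the WT libraries, and 43 members rose in both. The share of all genes that rose in both was not counted. SEC23B, MIA3, HYOU1, PDIA6 and ATF4 did not pass in KO 1#, and HYOU1 did not pass in KO 2#.

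Compared directly, KO 2# and KO 1# differed in 4 members, 3 higher and 1 lower in KO 2#, beside 1.58% and 2.28% of all genes, 3.86% in all. The 3 were SEC61G (0.30 ± 0.0821 SE, adjusted p = 0.0497), SSR3 (0.24 ± 0.0632 SE, adjusted p = 0.0415) and HSPA5 (0.23 ± 0.0545 SE, adjusted p = 0.0252). ATF4 was lower (-0.31 ± 0.0590 SE, adjusted p = 0.00460). In 45 of 48 members the KO 2# estimate was the higher, with a median difference of 0.14 on the log2 scale. Over all genes the median difference was 0, and the share with a higher KO 2# estimate was not counted. SEC61G, SSR3 and HSPA5 lost the call under library totals, under totals without the 20 most abundant genes, and without either KO 2# library, and SEC61G and SSR3 also without KO 1# replicate 1. The number of members higher in KO 2# changed with the library left out. With the DESeq2 test it was 12, beside 2.66% of all genes. ATF4 lost its call only without KO 2# replicate 1 (adjusted p = 0.0922) or replicate 2 (adjusted p = 0.102) among the alternatives run.

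Genes of the eIF2 alpha and ATF4 arm, 16 in the list, were divided: against WT 9 rose and 6 fell, beside 35.8% and 41.4% of all genes, so that the share that fell lay near that of all genes. The median was 0.26. VLDLR (log2 fold change -3.13) and PSAT1 (-1.81), an enzyme of serine synthesis, fell, and NUPR1 stood at 0.0191 to 0.333 CPM in WT and 11.7 to 14.9 in the knockout libraries. Between the sets, 3 were lower and 1 higher in KO 2#, beside 2.28% and 1.58% of all genes. These 4 are named after their values were seen. CHAC1, a glutathione-degrading ATF4 target, stood at 21.8 and 22.2 CPM in the WT libraries, at 50 and 47.1 in KO 1# and at 25.7 and 25 in KO 2#. DDIT4, a stress-induced inhibitor of mTORC1, stood at 30.8 and 30.9 CPM in the WT libraries, at 23.7 and 21.6 in KO 1# and at 11 and 13.1 in KO 2#. CHAC1 and DDIT4 were lower in both KO 2# libraries than in both KO 1# libraries (-0.94 ± 0.0976 SE, adjusted p = 1.12e-05, and -0.91 ± 0.124 SE, adjusted p = 2.13e-04). CEBPG, a partner of ATF4, was also lower (-0.36 ± 0.0975 SE, adjusted p = 0.0454), and EIF2AK2 (PKR), an eIF2 alpha kinase activated by double-stranded RNA, was higher (0.60 ± 0.0776 SE, adjusted p = 1.22e-04). The members DDIT3 and TRIB3 did not pass between the sets (0.51 ± 0.299 SE, adjusted p = 0.436, and -0.05 ± 0.112 SE, adjusted p = 0.894).

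**Figure D5:**
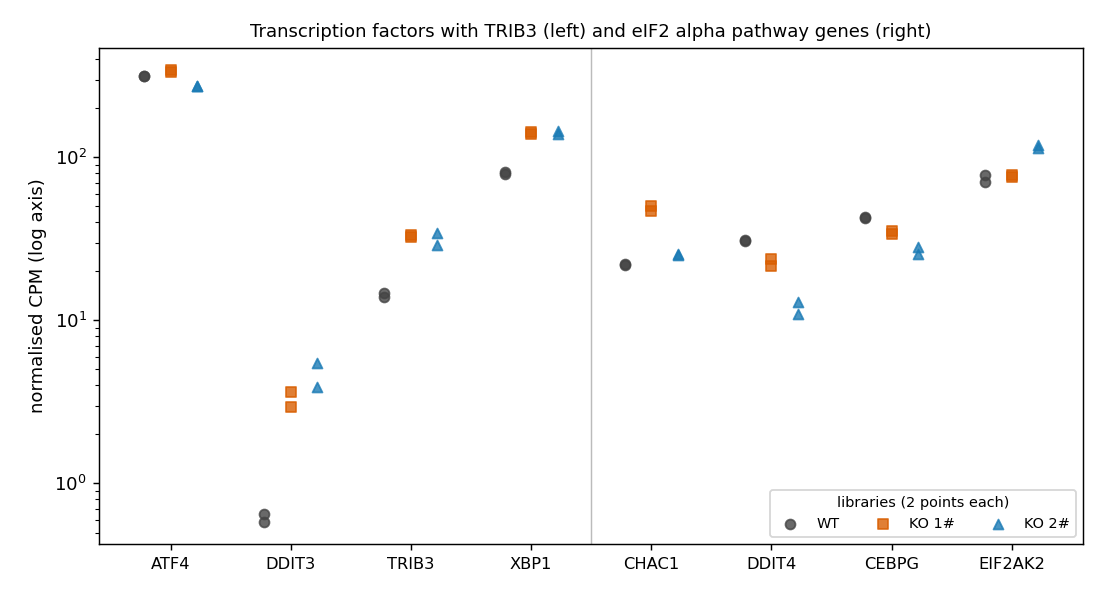
TMM-normalised CPM on a log axis, 1 point per library, for the transcription factors XBP1, ATF4 and DDIT3 with TRIB3 (left) and 4 eIF2 alpha pathway genes (right). KO 2# lies below KO 1# for ATF4, CHAC1, DDIT4 and CEBPG and above it for EIF2AK2.

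In 7 of 8 lists of further pathway genes more members rose than fell by at least 2 to 1, the exception being the eIF2 alpha list. Beside each of these lists stand 35.8% of all genes that rose and 41.4% that fell. Under library totals, where 21.9% of all genes rose and 59.9% fell, the signal recognition particle list had 6 higher and 8 lower. The eIF2 alpha list had 3 and 12, while the other 6 lists still had more genes higher than lower. The list named for the signal recognition particle and signal peptidase has 15 genes and also holds receptor and translocon-associated genes. Of these 15, 11 rose and 2 fell (median 0.53). The largest rises were those of TRAM2 (3.09), a translocon-associated protein tied to collagen synthesis, the receptor subunit SRPRB (2.06) and TRAM1 (1.93). Of 12 subunits of the oligosaccharyltransferase, which adds N-glycans, 10 rose and 2 fell (median 1.23), with OST4 at 1.94, OSTC at 1.72 and MAGT1 at 1.64. Of 20 further COPII, exit site and cargo receptor genes 19 rose and 1 fell (median 1.17). The vesicle SNARE SEC22B rose by 2.79 and the cargo receptor TMED9 by 2.05, while SEC16B stood at 0.0208 to 0.115 CPM in WT and 0.506 to 1.52 in the knockout libraries.

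Return traffic by the COPI coat showed 13 of 14 genes higher and 1 lower (median 1.58). COPZ2, a coat subunit, stood at 0.0956 to 0.146 CPM in WT and 53.1 to 66.7 in the knockout libraries, and the ARF1 regulators ARFGAP3 and GBF1 rose by 2.49 and 1.98. Of 19 further ERAD genes 17 rose and 2 fell (median 1.14), including the mannosidase-like EDEM3 (2.64), the lectin OS9 (2.16) and the ubiquitin-conjugating UBE2J1 (2.09). Of 19 further folding genes 18 rose and 1 fell (median 1.29). FKBP10, a prolyl isomerase that acts on collagen, rose by 3.06, the HSPA5 exchange factor SIL1 by 2.52 and P4HB, a disulfide isomerase and prolyl hydroxylase subunit, by 2.08. Of 6 tested ER membrane factors and proteases 4 rose and 2 fell. CREB3 rose by 2.02, CREB3L4 had a log2 fold change of -3.14, and ERN2, the epithelial IRE1 paralogue, stood at 1.89 to 1.96 CPM in WT and 0.0675 to 0.399 in the knockout libraries.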

How the data were processed

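Total RNA (1 ug, Trizol) went into TruSeq libraries, per the labels' protocols. The authors deposited gene counts that were not normalised. The submitters' processing notes name HISAT2 2.0.4, SAMtools 1.3.1, HTSeq 0.6.0, DESeq 1.18.1 and GRCh38. Which tool did what, the gene annotation and the handling of strand are not given in the sources consulted. The 48 members, their roles and the pathway and marker lists were chosen with earlier results of these data known.

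Scaling used TMM, and the test was the quasi-likelihood test (legacy, robust) of edgeR 4.0.16 under R 4.3.3. The fit held 6 libraries in 3 groups, with filterByExpr at a minimum count of 10, which kept 19660 genes, and 3 residual degrees of freedom. "Both knockout sets" is the mean of KO 1# and KO 2#. Tests were two-sided, adjusted by Benjamini-Hochberg over all genes tested and called below 0.05. Standard errors came from the F statistic. The edgeR fit and the DESeq2 test were tried on simulated counts in which a small set of genes changed, up and down alike. That simulation held no shift in the mix of transcripts like that of collagen here, so it does not test the scaling. Alternatives used DESeq2 1.42.0, other scalings and filters, a replicate block and each library left out. Named genes were all members, BRPF1 and up to 3 called genes per list by size of change. Positions, exon overlaps and transcript lengths came from GENCODE 29 on GRCh38, promoters from RefSeq on GRCh38.p14. Same-numbered replicates were not paired by any label. No protein sequence was used here.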

Additional observations from a re-analysis of the deposited data

Results flagged for a closer look

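The log2 fold change against WT differed between KO 2# and KO 1# by the edgeR test of that difference, adjusted over all genes, for 9 genes of the members and pathway lists. There were 48 members and 122 pathway list entries, and the same test called 3.86% of all genes. Each difference is given as KO 2# minus KO 1#. It was -0.31 for ATF4, 0.23 for HSPA5, 0.30 for SEC61G and 0.24 for SSR3 among the members. In the pathway lists it was -0.94 for CHAC1, -0.91 for DDIT4, -0.36 for CEBPG, 0.60 for EIF2AK2 and 0.29 for ERLEC1, an ERAD lectin (adjusted p = 0.0498). CHAC1, DDIT4 and EIF2AK2 kept the call under all alternatives run, and CEBPG lost it with DESeq2 size factors and without WT replicate 2, KO 1# replicate 1 or either KO 2# library.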

How the results depend on the processing

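Across 13 alternatives, 33 of the 45 members called against WT by both knockout sets kept their call and direction under every one. Library totals left 9 members lower against WT for both sets and for KO 1#, and 6 for KO 2#, with medians of 0.45, 0.48 and 0.49. Of all genes, 59.9%, 56.4% and 58.2% were lower under that scaling. Totals without the 20 most abundant genes left 5, 5 and 3 lower, beside 51.6%, 48.1% and 49.7% of all genes. Medians there were 0.79, 0.81 and 0.83. Under library totals the sign turned for SSR4 (-0.053), SEC23B (-0.54), SEC24B (-0.13), SEC24C (-0.18), MIA3 (-0.52), HSP90B1 (-0.37), PDIA4 (-0.072), PDIA6 (-0.63), SDF2L1 (-0.26), EIF2AK3 (-0.24), ATF4 in KO 1# (-0.61) and BRPF1 (-0.66). Without the 20 genes it turned for SEC23B (-0.20), MIA3 (-0.18), HSP90B1 (-0.033), PDIA6 (-0.29), ATF4 in KO 1# (-0.28) and BRPF1 (-0.32). With each library left out, HYOU1 ranged from -0.14 (without WT replicate 2) to 0.012 (without WT replicate 1) and BRPF1 from -0.064 (without WT replicate 2) to 0.23 (without WT replicate 1). DESeq2 size factors gave medians of 1.13 for KO 1# and 1.21 for KO 2#, and 1 member lower in KO 1#, beside 40.1% of all genes. The DESeq2 test gave the same medians and 1 member lower for both sets, beside 39.5% of all genes.

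For KO 2# against KO 1#, the members higher were 0 under library totals (1.13% of all genes) and 0 without the 20 genes (1.3%). They were 12 with the DESeq2 test (2.66%) and 9 with only the groups compared (3.13%). Medians there were 0.086, 0.10, 0.16 and 0.15, with 0.16 for DESeq2 size factors and 0.13 for each other low-count filter. With each library left out, members higher ranged from 0 to 10, members lower from 0 to 1 and the median from 0.14 to 0.15. The same ranges were 0 to 1 lower and medians of 1.15 to 1.19 for KO 1#, and 0 to 1 lower and 1.24 to 1.28 for KO 2#, against WT.

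Paralogue shares (knockout minus WT, percentage points) were recomputed in alternatives chosen after seeing the data. With the length of all exons they were 36.6 for SEC23A, 18.4 for SEC24D, -41.63 for KDELR1, 19.99 for KDELR2 and 21.6 for KDELR3. Without length correction they were 30.5 for SEC23A, 19.7 for SEC24D, 25.5 for KDELR2 and 14.5 for KDELR3. With the principal transcript, as used for the shares above, they were 32.5, 20.3, 21.7 and 18.2. Leaving out each library gave 21.1 to 22.4 for KDELR2.

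Over all genes, same-numbered replicates did not deviate together (correlations 0.0336, 0.0110 and 0.0269). Such correlations cannot exclude a pairing that affects only some genes. A replicate block gave 46 members higher for both sets and 1 lower in KO 1#, beside 35.7% and 38.5% of all genes. For KO 2# against KO 1# it gave 17 higher with a median of 0.14, beside 4.09% of all genes higher. The cause of these shifts was not tested. With 2 libraries a group, small differences such as those of SEC23B and MIA3 are at the limit of what can be called.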
